A study of Drosophila melanogaster with 6 samples.

Results

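The 10 tubulin genes of Drosophila melanogaster considered here were followed in poly(A) RNA-seq data from Kc cells. They were taken by symbol, and all 10 were found among the 17714 genes listed for each library. They comprise 4 alpha-tubulins (alphaTub84B, alphaTub84D, alphaTub85E and alphaTub67C), 4 beta-tubulins (betaTub56D, betaTub60D, betaTub85D and betaTub97EF) and 2 gamma-tubulins (gammaTub23C and gammaTub37C). Kc is an established cell line of embryonic origin that resembles plasmatocytes, the phagocytic blood cells of the fly, and it is known to respond to the steroid hormone ecdysone.

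Alpha- and beta-tubulin proteins pair into dimers that polymerise into microtubules, and gamma-tubulin sits in a ring-shaped complex from which new microtubules start. The fly makes some tubulins in nearly all cells and others in few tissues: alphaTub67C and gammaTub37C are known as maternal genes of the ovary and early embryo, betaTub85D as a gene of the male germline, and betaTub60D as a gene of muscle and nervous tissue that ecdysone induces in Kc cells. The beta-tubulin betaTub97EF is known from blood cells and gut.

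The study compared 3 wild-type (WT) Kc libraries with 3 Kc libraries labelled ko for CG14906, the methyltransferase gene that the reference annotation calls Mettl4. The latter are called KO here after their source and genotype fields, although their titles begin with OE. The series' title ties CG14906 to m6A of the spliceosomal U2 snRNA. No label gives a clone, a separate culture or the position of the lesion, so p-values reflect only how much these libraries varied, a variation that may be technical.

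Expected counts, the reads that the RSEM program assigned to genes, summed to between 9963557 and 18906951 per library. Levels are given as TPM, which corrects for transcript length and allows genes to be compared with each other, or as normalised CPM, counts scaled to the library total with TMM factors, which was used to compare groups. CG14906 itself stood at 18.9, 20.1 and 16.4 CPM in WT and at 20.3, 18.5 and 20.2 CPM in KO (log2 fold change 0.10, SE 0.10, edgeR adjusted p = 0.435), so its RNA level did not mark off the libraries labelled KO. Relative to the median change of its 1 Mb genomic segment, the value turned to -0.29 (adjusted p = 0.0498). Over all genes, 4551 of 8405 tested passed the edgeR quasi-likelihood test at an adjusted p under 0.05, which is 54.1%, with 27.7% higher and 26.5% lower in KO. For 63.3% of the tested genes the CPM ranges of WT and KO lay apart. WT replicates 2 and 3 lay closer together than any other pair (chi-square per gene of 1.75, against 3.24 for KO replicates 2 and 3 and 21.1 to 32.5 for the other pairs within a group), and replicate 1 of each group stood apart from replicates 2 and 3. Of 11 plasmatocyte markers 10 were tested, and 5 rose and 3 fell (80% called). Their summed level was 6288 to 8785 CPM in WT and 8259 to 12273 CPM in KO. The phagocytic receptor gene eater was lower in KO (log2 fold change -2.10, edgeR adjusted p = 2.27e-06) and the matrix peroxidase gene Pxn higher (4.15, adjusted p = 0.000288). Hml, named after its values were seen, was at 3383 to 4713 CPM in WT and at 3667 to 4974 in KO, and NimC1 was at 0 in WT replicates 2 and 3 and at most 3.07 CPM elsewhere.

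Kc cells used mainly alphaTub84B and betaTub56D. In WT, alphaTub84B averaged 2492 ± 93.5 TPM and betaTub56D 2452 ± 12.9 TPM (SD, n = 3), and the ranges of the 2 genes overlapped. alphaTub84D followed at 195 TPM, betaTub60D at 90.1, gammaTub23C at 44.7 and betaTub97EF at 31.1 TPM. Far below lay gammaTub37C at 3.22 TPM, alphaTub85E at 0.56 and alphaTub67C at 0.193 TPM, and betaTub85D came last. Apart from the leading pair, neighbours in this order did not overlap in range. Among the lowest genes this rests on very few counts and does not set their ranks apart. In WT replicate 3, alphaTub85E and alphaTub67C had 5 counts each (0.26 and 0.25 TPM). In KO the order differed in the middle: betaTub60D (328 TPM) and betaTub97EF (198 TPM) stood above alphaTub84D (165 TPM), alphaTub85E (15.5 TPM) stood above gammaTub37C, and gammaTub37C (0.173 TPM) overlapped with alphaTub67C (0.19 TPM). In that group alphaTub84B (2241 TPM) and betaTub56D (1906 TPM) no longer overlapped with each other.

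**Figure D1:**
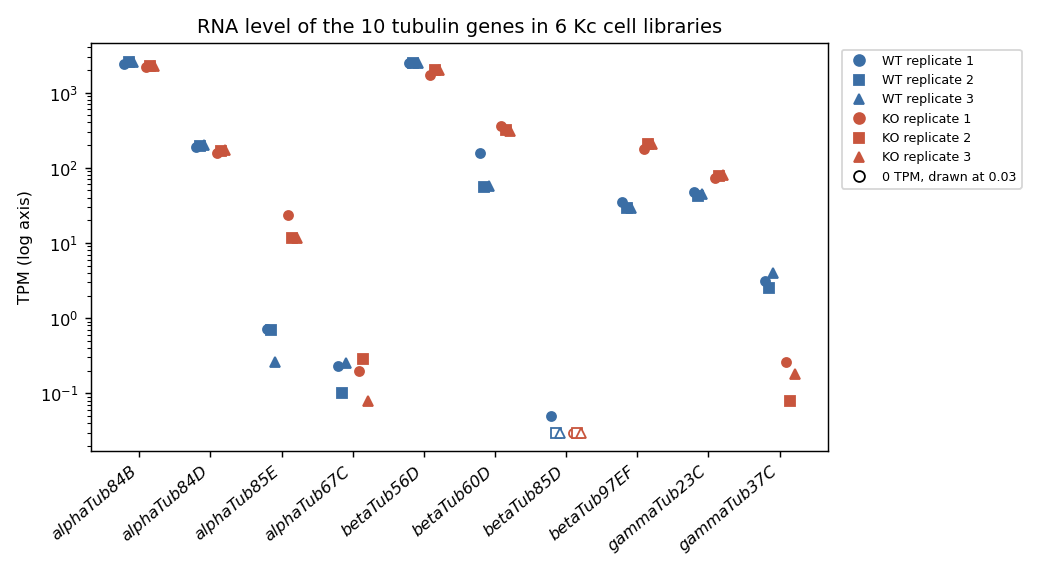
TPM (log axis) of each tubulin gene in the 3 WT and 3 KO libraries, with 1 point per library and open symbols for libraries at 0. alphaTub84B and betaTub56D lead in all 6 libraries, betaTub60D, betaTub97EF and alphaTub85E lie higher in KO, and gammaTub37C lies at 2.48 to 4.01 TPM in WT and at 0.08 to 0.26 TPM in KO.

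Of the 10 genes, 8 had enough counts to be tested between the groups. Of these, 4 were higher in KO (alphaTub85E, betaTub60D, betaTub97EF and gammaTub23C), 3 were lower (alphaTub84D, betaTub56D and gammaTub37C), and alphaTub84B did not pass. alphaTub85E entered the test through its counts in KO and gammaTub37C through its counts in WT. These counts are set beside the 54.1% of all tested genes as a description, and nothing is read from their size. Calls of at least 4-fold made up 6.15% of the tested genes, 4.59% being rises, and among the tubulins alphaTub85E, betaTub97EF and gammaTub37C had folds of that size.

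**Figure D2:**
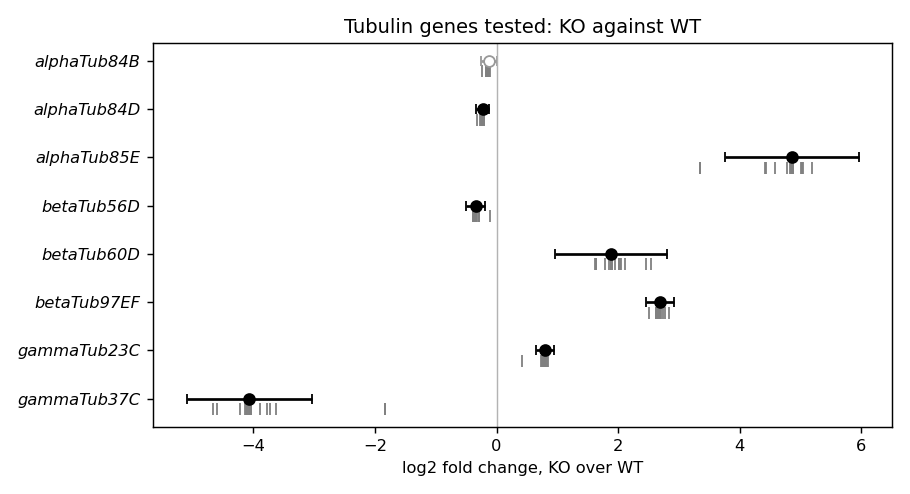
Log2 fold change of KO over WT for the 8 tubulin genes tested, with 95% intervals of the edgeR fit (filled circles passed the test, the open circle did not) and grey ticks for the alternative settings. alphaTub85E, betaTub60D, betaTub97EF and gammaTub23C lie above 0 throughout, and gammaTub37C below 0 throughout.

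Among the alpha-tubulins, alphaTub84B and alphaTub84D encode nearly the same protein and are expressed in most fly tissues. alphaTub84B (FBgn0003884) lies on the plus strand of 3R at 7086599 to 7088839 in dm6 and has 1 intron. It stood at 2712, 2868 and 2847 CPM in WT and at 2537, 2620 and 2535 CPM in KO. All 3 KO libraries lay below the WT libraries, but the log2 fold change of -0.13 (SE 0.06, 95% interval -0.26 to 0.00) missed the threshold (adjusted p = 0.0829). With DESeq2's Wald test it was called (adjusted p = 0.0126), as it was without WT replicate 1 (-0.17, adjusted p = 0.0178), without both number-1 libraries (-0.16, adjusted p = 8.03e-05) and with the median change of its genomic neighbourhood as an offset (-0.24, adjusted p = 0.0126).

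alphaTub84D (FBgn0003885), an intronless gene on the same strand of 3R at 7530753 to 7532732, gave 245, 250 and 256 CPM in WT but only 209, 216 and 217 CPM in KO. The ranges lay apart, and the gene fell by 0.22 on the log2 scale (SE 0.05, adjusted p = 0.00509). The expected counts of alphaTub84B and alphaTub84D were fractional in all 6 libraries, whereas their sum was whole in all 6 (within 0.015), so reads that match both genes were divided between them and only between them. How those reads were split could not be checked, and with both genes summed the log2 fold change was -0.14 (adjusted p = 0.0676).

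alphaTub85E, known from the somatic cells of the testis and from muscle attachment sites, was nearly silent in WT. This gene (FBgn0003886; minus strand of 3R, 9731221 to 9733250, 2 introns) had 12, 7 and 5 counts in WT and 337, 153 and 132 counts in KO. In CPM it stood at 0.728, 0.698 and 0.262 in WT and at 24.1, 11.8 and 11.4 in KO, so the lowest KO library was far above the highest WT library and KO replicate 1 was the highest of all. The fitted ratio was 29.1-fold (log2 fold change 4.87, SE 0.47, 95% interval 3.77 to 5.96, adjusted p = 0.000183). Since the gene passed the count filter only through KO, where it was high, the fit without a filter bears on it more, and that gave 4.82 (adjusted p = 1.08e-06). Bulk RNA cannot tell more cells of a type from more RNA per cell, here and in what follows. On the log2(TPM + 1) scale, which understates changes of low genes, the difference was 3.35 (adjusted p = 0.000199). The nearest gene, FoxP, which encodes a forkhead transcription factor, lies 348 bases away and had 4, 0 and 2 counts in WT and 34, 12 and 16 in KO. It too passed the count filter only through KO, so no test is given for it. Pnn, on the other side at 7648 bases, did not pass (-0.10, adjusted p = 0.318).

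alphaTub67C, the maternal alpha-tubulin (FBgn0087040; plus strand of 3L, 9681268 to 9683370, 1 intron), had 4, 1 and 5 counts in WT and 3, 4 and 1 in KO. It was too low to test, and the ranges overlapped at 0.0997 to 0.262 CPM in WT and 0.0867 to 0.309 CPM in KO.

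Within the alpha family the mix of isotypes differed little in size. alphaTub84B made up 92.7% ± 0.135 of summed alpha-tubulin TPM in WT and 92.6% ± 0.237 in KO (SD, n = 3), with overlapping ranges. alphaTub84D held 7.36%, 7.11% and 7.31% in WT and 6.69%, 6.73% and 6.97% in KO. alphaTub85E, despite its rise, reached only 0.992%, 0.474% and 0.473% of the family in KO, from 0.00951% to 0.028% in WT.

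Among the beta-tubulins, betaTub56D is the form made in most fly tissues. This gene (FBgn0284243; minus strand of 2R, 19447319 to 19451600, 1 intron) was very even in WT at 2510, 2497 and 2502 CPM, and lower in KO at 1828, 2075 and 2021 CPM. The groups did not overlap. It fell by 0.34 on the log2 scale (SE 0.07, 95% interval -0.50 to -0.19, adjusted p = 0.0042), a 1.27-fold difference. Tested genes of its 1 Mb segment had a median log2 fold change of -0.24 (46 genes), and with that median as an offset the call was lost (-0.10, adjusted p = 0.255).

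betaTub60D was 3.69-fold higher in KO. The gene (FBgn0003888 in the files; plus strand of 2R, 24305881 to 24313099, 3 introns) stood at 260, 92.1 and 94.8 CPM in WT and at 615, 536 and 500 CPM in KO. All KO libraries exceeded all WT libraries, but WT replicate 1 stood apart at 2.78 times the mean of WT replicates 2 and 3. The fitted difference on the log2 scale was 1.88 (SE 0.40, 95% interval 0.96 to 2.81, adjusted p = 0.0058), and 2.55 without WT replicate 1 (adjusted p = 2.56e-05). KO replicates 2 and 3 were 5.54 times WT replicates 2 and 3, the libraries without the number 1. The segment of betaTub60D had a median log2 fold change of -0.23 over 110 tested genes.

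betaTub97EF was 6.42-fold higher in KO. This gene, which is known to stabilise microtubules in the fly at low temperature (FBgn0003890; minus strand of 3R, 27967008 to 27988384, 6 introns), gave 38.7, 31.4 and 31.9 CPM in WT. In KO it gave 201, 229 and 227 CPM, all more than 5 times the highest WT value. The log2 fold change of 2.68 had the smallest adjusted p of the tubulins (SE 0.10, 95% interval 2.45 to 2.91, adjusted p = 3.54e-06), and it stayed between 2.51 and 2.84 under all 18 alternatives fitted. Its neighbour CG4849, 49 bases away, did not pass the test (0.10, adjusted p = 0.213).

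betaTub85D, the beta-tubulin of sperm tails (FBgn0003889; minus strand of 3R, 9408383 to 9410282, 1 intron), had 1 count in WT replicate 1 and 0 in the other 5 libraries. A count of 0 allows up to 3 counts, or 0.159 to 0.301 CPM in those 5 libraries. These limits cover counting error only.

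The expected counts of betaTub56D, betaTub60D and betaTub97EF were fractional in 5 of 6 libraries but summed to whole numbers in all 6 (within 0.015), so some reads were divided among these 3 genes. The other 5 tubulins had whole counts in every library.

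In the beta family the mix of isotypes shifted away from betaTub56D in every KO library. betaTub56D supplied 92.7%, 96.7% and 96.6% of summed beta-tubulin TPM in WT and 76.2%, 79.2% and 79.5% in KO. betaTub60D supplied 5.95%, 2.21% and 2.27% in WT and 15.9%, 12.7% and 12.2% in KO. betaTub97EF supplied 1.21% ± 0.112 in WT and 8.12% ± 0.242 in KO (SD, n = 3). None of these 3 shares overlapped between the groups, and each had p = 0.1 in an exact two-sided permutation test (adjusted p = 0.1308 over 17 such values), the smallest that 3 libraries against 3 allow. Beta-tubulin other than betaTub56D summed to 121 ± 61.0 TPM in WT and to 526 ± 9.47 TPM in KO.

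**Figure D3:**
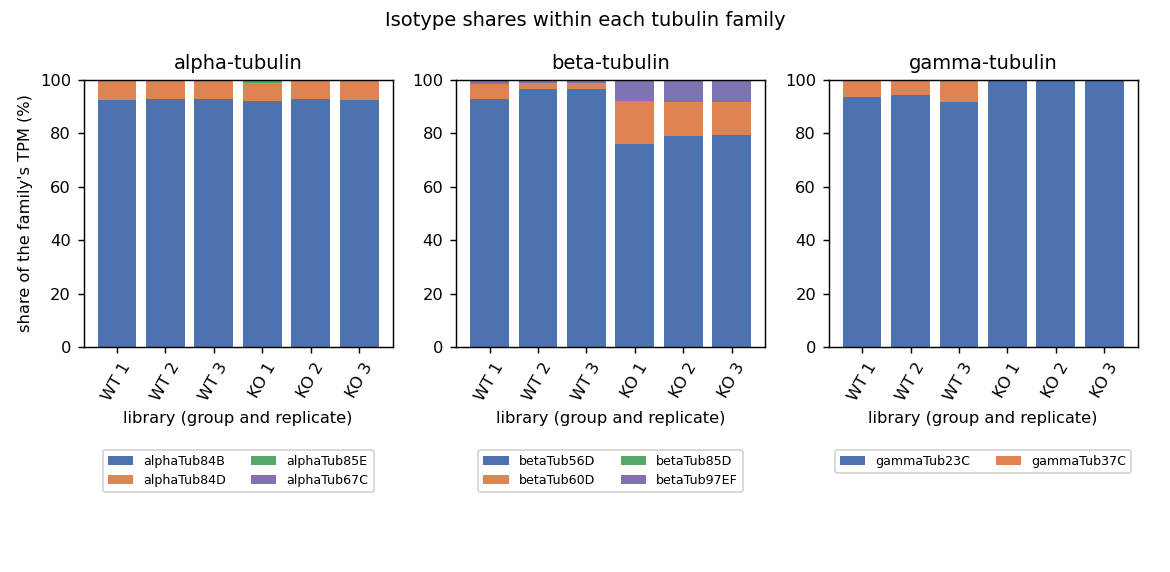
Share of each isotype in the summed TPM of its family (percent), with 1 stacked bar per library for alpha-, beta- and gamma-tubulin. betaTub56D is at least 92.7% of beta-tubulin in WT and at most 79.5% in KO, and gammaTub37C is at least 5.59% of gamma-tubulin in WT and at most 0.357% in KO.

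The gamma-tubulins moved in opposite directions. gammaTub23C, the gamma-tubulin of somatic cells (FBgn0260639; plus strand of 2L, 2972891 to 2974858, 2 introns), stood at 56.7, 49.8 and 53.8 CPM in WT and at 90.3, 93.8 and 94.0 CPM in KO. The groups were well apart, and the rise was 1.73-fold (log2 fold change 0.79, SE 0.06, adjusted p = 8.73e-05). Its segment had a median log2 fold change of 0.38 over 82 tested genes, and with that as an offset the rise was 0.41 (adjusted p = 0.00191).

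gammaTub37C, the maternal gamma-tubulin (FBgn0010097; minus strand of 2L, 19183863 to 19185726, 3 introns), had 51, 25 and 74 counts in WT and 4, 1 and 2 in KO. That is 3.10, 2.49 and 3.88 CPM against 0.286, 0.0773 and 0.173 CPM, with no overlap. The fitted ratio was 16.8-fold lower in KO (log2 fold change -4.07, SE 0.44, 95% interval -5.09 to -3.04, adjusted p = 0.000286). The gene passed the count filter only through WT, and the fit without a filter gave -4.11 (adjusted p = 2.36e-05). Without both number-1 libraries the log2 fold change was -4.66 (adjusted p = 2e-05), and on the log2(TPM + 1) scale the difference was -1.83 (adjusted p = 0.00054). Its nearest tested neighbours pigeon (-0.46, adjusted p = 0.00452) and CG17568 (-0.58, adjusted p = 0.00251) were also lower, by far less. Of the summed gamma-tubulin TPM, gammaTub23C supplied 93.3% ± 1.32 in WT and 99.8% ± 0.127 in KO (SD, n = 3).

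In total, the 10 genes held 0.525% to 0.534% of all TPM in WT and 0.467% to 0.506% in KO. Summed alpha-tubulin was 2688 ± 97.8 TPM in WT and 2421 ± 67.8 TPM in KO, and summed beta-tubulin 2573 ± 48.1 and 2432 ± 153 TPM (SD, n = 3). The alpha to beta ratio was 0.98, 1.08 and 1.07 in WT and 1.04, 0.976 and 0.976 in KO, with overlapping groups (exact two-sided permutation test, p = 0.2). Gamma-tubulin amounted to 0.838% to 0.966% of alpha plus beta in WT and to 1.55% to 1.60% in KO (exact two-sided permutation test, p = 0.1, the smallest possible).

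RSEM's transcript length, which is weighted by isoform abundance, showed which isoforms the reads were assigned to. betaTub56D has 2 annotated transcripts that differ in the first exon, and between 99.85% and 100% of its abundance went to the shorter one in every library. betaTub60D has 2 transcripts that differ by 3 bases at the start of a coding exon (24310893 or 24310896 on 2R), and the longer one held 61.0%, 57.33% and 57.0% in WT and 62%, 61.0% and 62.33% in KO. Neither length passed limma's test (adjusted p = 1.0 for each), for which 109 of 4002 genes, or 2.72%, were called. That count was 18 to 72 with 1 library left out, the fewest without WT replicate 3, and 9 with a replicate block. The betaTub97EF transcripts differ by alternative coding exons of 168 bases each, which length cannot separate. gammaTub37C also has 2 transcripts, of 1521 and 1628 bases. Its weighted length was 1521, 1580.33 and 1521 bases in WT and 1628, 1521 and 1521 bases in KO. At its low counts the assignment thus varied between libraries of a group, and its mean TPM was too low for the length test.

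Genes with the most similar course over the 6 libraries were looked up for betaTub60D, betaTub56D and alphaTub84B. For betaTub60D, the tested genes with the highest Pearson r of log2 CPM were AGO2 (0.9994), rols (0.9987) and CG2930 (0.9983). AGO2, the RNA interference effector, stood at 926, 778 and 783 CPM in WT and at 1079, 1058 and 1054 CPM in KO, and rols, a myoblast fusion gene, at 4.01, 1.3 and 1.52 and at 9.86, 9.13 and 8.15 CPM. Both share with betaTub60D the high WT replicate 1. For betaTub56D the closest were Socs16D (0.9997), vap (0.9993) and swm (0.9990), and for alphaTub84B Deaf1 (0.9973), CG14286 (0.9943) and CG17233 (0.9943). Such values are common with 6 libraries in 2 groups: 443, 606 and 335 genes passed an r of 0.95 with betaTub60D, betaTub56D and alphaTub84B.

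Because betaTub60D is an ecdysone-induced gene of Kc cells, ecdysone response genes were set beside it. Of 25 listed, 16 were tested, 5 rose, 5 fell (62.5% called, against 54.1% over all genes) and the median log2 fold change was -0.18, against 0.01 over all genes. The receptor gene EcR was lower, at 64.1, 72.9 and 68.7 CPM in WT against 28.8, 34.7 and 34.3 in KO (log2 fold change -1.07, SE 0.09, adjusted p = 0.000118). The gene of its partner usp was also lower, at 51.5, 52.2 and 54.3 against 29.4, 37.1 and 37.8 CPM (-0.60, adjusted p = 0.00248), a call that the segment median as an offset removed (-0.01, adjusted p = 0.935). Eip55E rose from 643, 685 and 686 to 1322, 1858 and 1920 CPM, and Eip93F from 3.58, 2.09 and 1.68 to 28.8, 16.9 and 17.5 CPM. Also called higher were Eip71CD (1.66, adjusted p = 0.00143), Cht2 (1.3, adjusted p = 0.000719) and Hr4 (1.35, adjusted p = 0.00294). Hr39 (-0.68, adjusted p = 0.00162), Eip78C (-0.43, adjusted p = 0.0167) and ftz-f1 (-0.35, adjusted p = 0.00067) were lower. Eip78C and ftz-f1 lost their calls with the segment median as an offset (adjusted p = 0.0898 and 0.0947). Eip71CD, Cht2, Hr4, Hr39 and Eip78C were named after their values were seen. The early genes Eip74EF (-0.13, adjusted p = 0.254) and Eip75B (-0.02, adjusted p = 0.846), named after their values were seen, did not pass. With the segment median as an offset both were called lower, Eip74EF at -0.45 (adjusted p = 0.00664) and Eip75B at -0.34 (adjusted p = 0.0127). Of the genes of this list, Ldh, ImpL2 and Hr3, also named after their values were seen, showed, like betaTub60D, a WT replicate 1 at more than 2 times the mean of WT replicates 2 and 3 (7.14, 2.80 and 2.79 times). In KO, replicate 1 was likewise 6.45, 2.52 and 2.42 times replicates 2 and 3 for these genes but 1.19 times for betaTub60D, and none of the 3 was called between the groups (adjusted p of 0.232, 0.669 and 0.519). Hr3 had only 21, 5.92 and 6 expected counts in WT. How many of all genes had such ratios was not counted, so the likeness to betaTub60D is a description only.

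Markers of the tissues in which the rarer tubulins are known ranged from 0 to well above 100 CPM. Of 15 testis markers, 5 were at 0 in all libraries, among them comr and nht, and 10 were under 1 CPM in all. Their summed level was 121 to 132 CPM in WT and 188 to 196 CPM in KO. Of 5 tested, 2 rose (achi and vis) and 1 fell (twe), or 60% called, against 54.1% over all genes. Most of the difference in the sum came from achi (51.2 to 53.2 CPM in WT, 87.9 to 105 in KO) and vis (9.77 to 12.5 and 20.7 to 24.3). The expected counts of achi and vis were fractional but summed to whole numbers in every library, so reads were divided between them. Their 2 rises are therefore not independent. Of 16 maternal and ovary markers, 4 were at 0 in all libraries (bcd, pgc, Vm26Aa and Cp36) and 9 were under 1 CPM, with a summed level of 75.2 to 90.0 CPM in WT and 94.0 to 103.9 CPM in KO. Of the 7 tested, 85.7% were called: swa and exu rose and png and gnu fell. vas and nos were also called higher, but they passed the count filter only through KO, where they stood at 0.786 to 2.43 and 0.867 to 2.22 CPM. Of the fallen genes of both lists, twe (-0.12, adjusted p = 0.44) and png (0.12, adjusted p = 0.269) were not called relative to their segments' medians. Of 11 muscle markers, 5 were tested and 0 passed edgeR's or DESeq2's test, with 1 at an unadjusted p under 0.05. The median log2 fold change of the 5 was 0.65, against 0.01 over all genes, so they leaned upward without a call. Their list's summed level was 65.3 to 69.7 CPM in WT and 64.2 to 74.0 CPM in KO. Of 9 neuron markers, 3 rose and 3 fell among 6 tested (100% called). Their summed level was 329 to 359 CPM in WT and 236 to 269 CPM in KO. Most of it came from cpx, the complexin gene, at 239, 243 and 253 CPM in WT and at 106, 165 and 175 CPM in KO. Whether any of these levels had a part in the tubulin changes was not tested.

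Proteins that fold, organise and move along tubulin were described by 10 lists. Together 121 genes were tested, of which 27 (22.3%) were higher and 49 (40.5%) lower in KO, with a median log2 fold change of -0.10. Over all genes tested these shares were 27.7% and 26.5%. By list, the share called in either direction ran from 37.5% (augmin complex) to 87.5% (tubulin-modifying enzymes), against 54.1% over all genes. It was 71.4% for the chaperonin CCT and prefoldin and 75% for genes that sequester, sever or depolymerise tubulin. For microtubule-associated proteins it was 69.6%, and for kinesins 63.2%.

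Genes of the chaperonin CCT and prefoldin were mostly higher. Of 14 subunits of the chaperonin CCT and of prefoldin, which fold newly made actin and tubulin, 9 rose and 1 fell (median log2 fold change 0.26). CCT3 stood at 304, 281 and 304 CPM in WT and at 471, 533 and 525 CPM in KO (log2 fold change 0.78, SE 0.07, adjusted p = 0.000114). CCT1 rose from 288, 285 and 292 to 437, 489 and 463 CPM (0.68, adjusted p = 0.0001) and the prefoldin subunit gene mgr from 60.5, 62 and 60.8 to 99.0, 95.7 and 98.0 CPM (0.68, adjusted p = 5.62e-05). Relative to their segments' medians these genes stayed called at smaller values, CCT3 at 0.40 (adjusted p = 0.00284), CCT1 at 0.34 (adjusted p = 0.0026) and mgr at 0.24 (adjusted p = 0.00655). Of the 5 tubulin folding cofactors tested, TBCC (0.57, adjusted p = 0.00538) and TBCD (0.28, adjusted p = 0.0232) rose, or 40% called, against 54.1% over all genes. Relative to their segments' medians neither was called, TBCC at 0.12 (adjusted p = 0.445) and TBCD at -0.10 (adjusted p = 0.374), and TBCD also lost its call with any of 4 single libraries left out (adjusted p up to 0.093).

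In the gamma-tubulin ring complex, where gammaTub23C acts, 1 of 6 genes rose and 2 fell, a share near that over all genes. Grip71, which brings the complex to the spindle, stood at 79.3, 92.5 and 92.0 CPM in WT and at 57.1, 53.4 and 54.3 CPM in KO (log2 fold change -0.68, SE 0.08, adjusted p = 0.000331). Relative to its segment's median Grip71 was at -0.37 (adjusted p = 0.00665). Grip128 was lower as well (-0.34, adjusted p = 0.00333), and Grip163 was higher (0.39, adjusted p = 0.00252), the latter not called relative to its segment's median (0.19, adjusted p = 0.0516). The core subunit genes Grip84 (-0.03, adjusted p = 0.634) and Grip91 (-0.13, adjusted p = 0.0836) did not pass. Of 8 augmin genes, whose products branch microtubules within the spindle, dgt5 rose and dgt3 and dgt4 fell, of which dgt5 (adjusted p = 0.192) and dgt3 (adjusted p = 0.278) were not called relative to their segments' medians.

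**Figure D4:**
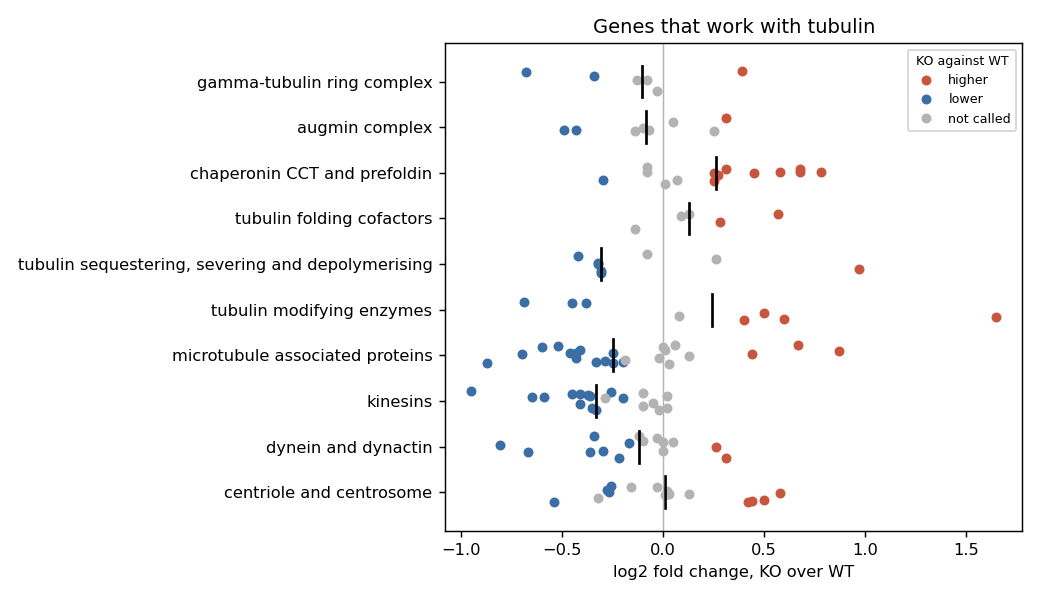
Log2 fold change of KO over WT for the tested genes of 10 lists of tubulin partners, with 1 point per gene, coloured by the edgeR call, and a black bar at each list's median. Kinesin points lie at or below 0 for the most part (median -0.33), whereas those of the chaperonin CCT and prefoldin lie mostly above 0 (median 0.26).

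Motor and microtubule-binding genes were mostly lower. Of 19 kinesin genes tested, 12 fell and 0 rose in edgeR's test (median log2 fold change -0.33), and 0 were higher at an unadjusted p under 0.05 or with DESeq2. The chromokinesin gene Klp3A went from 174, 181 and 181 CPM in WT to 99.8, 91.3 and 85.3 CPM in KO (log2 fold change -0.95, SE 0.07, adjusted p = 5.17e-05). The cytokinesis kinesin pav (-0.65, adjusted p = 0.000189), the spindle kinesin Klp61F (-0.59, adjusted p = 0.000203) and the transport kinesin Khc (-0.41, adjusted p = 0.000716) also fell. Relative to their segments' medians these kinesin genes stayed called, Klp3A at -0.37 (adjusted p = 0.00375), pav at -0.57 (adjusted p = 0.000475), Klp61F at -0.84 (adjusted p = 6.41e-05) and Khc at -0.30 (adjusted p = 0.00412). Among 23 microtubule-associated protein genes, 13 fell and 3 rose (median -0.25). The spindle gene mars fell by 0.70 on the log2 scale (adjusted p = 4.11e-05) and the plus-end gene CLIP-190 by 0.60 (adjusted p = 0.0001), although relative to its segment's median the latter was not called (-0.11, adjusted p = 0.105). The microtubule-binding gene Jupiter rose from 572, 517 and 523 to 964, 963 and 1014 CPM (0.87, adjusted p = 6.31e-05). Relative to their segments' medians Jupiter was at 0.43 (adjusted p = 0.00164) and mars at -0.81 (adjusted p = 2.82e-05).

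Of 15 dynein and dynactin genes, 7 fell and 2 rose (median -0.12), which is 60% called and near the 54.1% over all genes. DCTN6-p27 of dynactin went from 49.3, 51.8 and 54.3 to 28.4, 29.8 and 30.3 CPM (-0.81, adjusted p = 0.000112), and the dynein light chain gene robl fell by 0.67 on the log2 scale (adjusted p = 0.000413). Of 8 tested genes for sequestering, severing or depolymerising tubulin, 5 fell, among them the depolymerising kinesin Klp10A (-0.31, adjusted p = 0.00137) and the katanin subunits Kat60 and kat80, and 1 rose, kat-60L1 (0.97, adjusted p = 0.0111), named after its value was seen. Of 8 tested tubulin-modifying enzyme genes, 4 rose, including the tubulin ligase-like TTLL5 (0.60, adjusted p = 0.00116) and TTLL4A (0.50, adjusted p = 0.00128), and 3 fell, including the tubulin acetyltransferase CG3967 (-0.38, adjusted p = 0.00581). Of 15 centriole and centrosome genes, 4 rose and 4 fell (median 0.01), or 53.3% called, the level over all genes, with the centriole gene asl at 0.58 (adjusted p = 0.000174) and SAK, the kinase that starts centriole duplication, at -0.54 (adjusted p = 0.000395). The tubulin-like genes CG7794 and CG32396, which are not among the 10, were under 1 CPM in all libraries.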

How the data were processed

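RNA was extracted with TRIzol and poly(A)-selected, per the labels' protocols, and the tools listed in the submitters' processing notes are RSEM 1.3.0, STAR 2.7.0f, cutadapt and CASAVA 1.7, with the build dm6. Not given in the sources used here are strand use, tool options and the annotation release. Per the file headers, the deposited files hold RSEM expected counts, TPM, FPKM and isoform-weighted lengths. The deposited FPKM values were not used here.

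Rounded expected counts were fitted with edgeR 4.0.16 under R 4.3.3. TMM factors and filterByExpr (minimum count 10) preceded the quasi-likelihood test, p-values were adjusted over all genes tested by Benjamini and Hochberg's method, and an adjusted p under 0.05 was a call. Adjusted p-values in the text are from this fit unless another tool or setting is named. Lengths were tested with limma 3.58.1 on the log2 scale for genes with a mean TPM of at least 5. Isotype shares used deposited TPM and exact permutation tests (scipy 1.17.1). Alternatives were DESeq2 1.42.0 and its size factors, other count filters, limma on log2(TPM + 1) or log2(TPM + 0.1), left-out libraries, WT replicates 2 and 3 summed, a replicate block, alphaTub84B and alphaTub84D summed, and the median change of each 1 Mb segment with at least 20 tested genes as an offset.

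Of 17714 gene identifiers, 17587 matched the Ensembl annotation in dm6 coordinates and 76 matched through a transcript identifier, among them betaTub60D. No tubulin gene shares bases with another annotated gene. The 10 genes and the lists were chosen with earlier results of these data known. Named genes are the 10 tubulins, CG14906, EcR, usp, the called genes of lowest adjusted p in each list (up to 4, with mean TPM in the higher group no less than 1), and the 3 genes most alike alphaTub84B, betaTub56D and betaTub60D. Outside that rule lie neighbouring genes, the genes said to be named after their values were seen, and, likewise chosen so, NimC1, nos, exu, the markers at 0, Grip84, Grip91, CG7794 and CG32396.

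The number-1 libraries of the 2 groups deviated from their group means together (r across genes of 0.49), although no label states a pairing. For numbers 2 and 3 the r was 0.133 and 0.337. WT replicate 2 went more with KO replicate 3 (0.324) than with KO replicate 2, so numbers 2 and 3 did not show a pairing by number. The fits were tested on simulated counts.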

Additional observations from a re-analysis of the deposited data

How the results depend on the processing

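The calls of alphaTub84D, alphaTub85E, betaTub60D, betaTub97EF, gammaTub23C and gammaTub37C kept their direction and passed the test under every alternative that kept genes separate. For alphaTub85E and gammaTub37C these calls carry a limit, since both passed the count filter only through the group where they were high. betaTub56D lost its call when segment medians served as an offset (-0.10, adjusted p = 0.255), and alphaTub84B, not called in the reported fit, was called under 4 alternatives. With a replicate block, which groups the libraries by number, 5061 genes were called instead of 4551 and no call of a tubulin gene changed. Over all alternatives between 3621 and 5801 genes were called. Segment medians as an offset turned 3 named genes: TBCD to -0.10 (adjusted p = 0.374), png to 0.12 (adjusted p = 0.269) and CG14906 to -0.29 (adjusted p = 0.0498). alphaTub84B and alphaTub84D summed gave -0.14 (adjusted p = 0.0676) and were not called, where alphaTub84D alone gave -0.22 and was called. The 109 genes called for length became 9 with a replicate block and 18 to 72 with 1 library left out, the fewest without WT replicate 3. With expected counts not corrected for length, the KO minus WT difference was -21.4 percentage points for the betaTub56D share instead of -17.0, 5.36 points for gammaTub23C and -0.122 for the alpha to beta ratio. The cause of these shifts was not tested. The counts of alphaTub67C and betaTub85D were too low to show a difference at this depth.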
